A study of Mus musculus with 19 samples.

Results

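A set of 31 genes of macrophages and other myeloid cells, among the 39017 genes of the count table, was followed in cancer cells sorted from E0771 mammary tumors. The genes were taken by symbol. For 9 of them, Itgam, Ctss, Adgre1, Ms4a7, Cd53, Tlr13, Mmp12, Cd200r1 and Clec4a2, the choice rested on their lower counts in obese than in lean tumors at midpoint, so that comparison is given as a description without a test. The midpoint libraries are also the baseline over time, so the p-values over time of these 9 are not independent of the choice. The other 22 were added as known myeloid genes. All 31 had counts, and all 31 passed the filter on low counts. E0771 cells come from a mammary carcinoma of a C57BL/6 mouse. In all groups 50000 E0771 cells marked with the red fluorescent protein mCherry were placed in the mammary fat pad of C57BL/6 mice, and mCherry-positive cells were sorted from dissociated tumors before RNA was extracted. The 18 libraries used were 5 of obese mice at endpoint (day 21), 4 of lean mice at endpoint, 5 of obese mice at midpoint (day 14) and 4 of lean mice at midpoint. The sample names pair obese with a high-fat diet and lean with chow. The sources used here do not give mouse age, the time on the diet or the purity of the sort. The labels number the tumors within each group, and the p-values below measure the spread between these samples.

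Macrophages arise from monocytes and from tissue-resident precursors, and their survival depends on the receptor encoded by Csf1r. The transcription factor encoded by Spi1, known as PU.1, drives the myeloid program and binds purine-rich sites in many myeloid promoters. Macrophages bind antibody-coated and dying cells with Fc, scavenger and lectin receptors, digest them in lysosomes and secrete complement C1q and proteases. They are often abundant in mouse mammary tumors, and carcinoma cells are not known to express most of these genes. A bulk measurement cannot tell fewer cells of a type from less RNA per cell.

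Promoter windows of 5 members are shown because the members moved together across libraries and Spi1 was one of them. Each window holds the 250 bases before a start site of RefSeq on GRCm38.p6, the same assembly as mm10, read 5′ to 3′ in the direction of the gene. Capitals mark the word GAGGAA, the core of many PU.1 sites, or its reverse complement TTCCTC, searched on both strands. All 5 were picked from the windows that hold the word. Itgam, Cd53 and Tlr13 were among members that rose over time in obese tumors. C1qb and Cd68 were among members that passed no test of fold change. Windows of other members, such as Fcer1g, Lyz2 and Pld4, do not hold the word. Nor do those of Clec4a2 and Cybb, which belong to start sites 16262 and 18447 bases into the gene as counted. The bases before the first base of these genes as counted were not searched. The Itgam window lay at chr7:128062390-128062639 (plus strand), with the word starting at positions -84 and -15 from the start site. The Cd53 window lay at chr3:106790150-106790399 (minus strand), with the word at -39. The Tlr13 window lay at chrX:106143025-106143274 (plus strand), with the word at -83. The C1qb window lay at chr4:136886201-136886450 (minus strand), with the word at -30. The Cd68 window lay at chr11:69666171-69666420 (minus strand), with the word at -225.
Itgam: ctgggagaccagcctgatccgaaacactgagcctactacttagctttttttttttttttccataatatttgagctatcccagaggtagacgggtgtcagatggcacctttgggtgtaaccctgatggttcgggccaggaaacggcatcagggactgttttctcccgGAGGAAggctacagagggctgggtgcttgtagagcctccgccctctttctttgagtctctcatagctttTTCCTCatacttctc
Cd53: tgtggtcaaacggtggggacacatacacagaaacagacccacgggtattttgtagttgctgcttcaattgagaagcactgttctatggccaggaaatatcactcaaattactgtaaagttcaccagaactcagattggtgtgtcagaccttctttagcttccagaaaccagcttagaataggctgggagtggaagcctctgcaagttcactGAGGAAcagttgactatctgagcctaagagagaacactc
Tlr13: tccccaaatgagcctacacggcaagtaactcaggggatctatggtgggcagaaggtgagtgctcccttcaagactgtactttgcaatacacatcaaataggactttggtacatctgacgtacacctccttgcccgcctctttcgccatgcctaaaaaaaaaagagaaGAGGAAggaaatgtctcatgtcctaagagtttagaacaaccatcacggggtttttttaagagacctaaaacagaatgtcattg
C1qb: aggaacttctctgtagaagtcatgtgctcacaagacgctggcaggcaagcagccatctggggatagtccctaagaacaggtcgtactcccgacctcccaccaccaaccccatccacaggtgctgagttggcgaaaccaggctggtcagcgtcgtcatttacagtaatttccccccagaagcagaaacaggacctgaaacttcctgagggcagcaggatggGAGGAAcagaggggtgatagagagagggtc
Cd68: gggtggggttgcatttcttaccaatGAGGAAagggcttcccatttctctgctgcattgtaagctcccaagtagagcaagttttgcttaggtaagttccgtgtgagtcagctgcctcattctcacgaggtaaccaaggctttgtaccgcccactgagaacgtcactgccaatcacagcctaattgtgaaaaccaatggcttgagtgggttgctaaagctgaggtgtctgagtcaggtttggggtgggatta
Windows were used for 22 members, as 26 windows, since some genes have more than 1 start site. The word occurred in 16 of these 26 windows, which is 61.5%, against 7639 of all 32851 windows of the same length, which is 23.3%. It occurred in the windows of 15 of the 22 members. A match of letters is a description and was not tied to binding or to a change in counts.

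The 18 libraries held 44174080 to 56996252 counts each. Mitochondrial counts made up 5.79% to 12.3% of the midpoint libraries, 17.1% to 24.4% of the obese endpoint libraries and 17.1% to 44.7% of the lean endpoint libraries. The time points did not overlap in this share, and its part in the changes over time was not tested. Lean endpoint replicate 4 was left out because its counts stop on chromosome 5. Levels are given as CPM, counts per 1000000 with library sizes scaled by the TMM method, and all 3 defining myeloid genes, Itgam, Adgre1 and Csf1r, had counts in each library. The summed level of the 31 members was 221 to 1178 CPM in obese endpoint tumors, 373 to 579 CPM in lean endpoint tumors, 275 to 597 CPM in obese midpoint tumors and 374 to 817 CPM in lean midpoint tumors. Obese endpoint replicate 4 stood apart, since it held the 1178 CPM against 221 to 367 CPM in the other 4 libraries of its group. It was the highest of its group for 30 of the 31 members, against 20.5% of all genes tested. Lean midpoint replicate 4 was the lowest of its group for 28 of the 31, against 21.2% of all genes tested. Obese midpoint replicate 3 was the highest of its group for 23, against 17.2% of all genes tested. Of 10 epithelial markers of the sorted cell type, 3 passed the filter on low counts and Cldn4 was at 0 in every library, and the 10 summed to 18.6 to 24 CPM in obese endpoint, 22 to 32 CPM in lean endpoint, 35.6 to 67 CPM in obese midpoint and 23.2 to 40.3 CPM in lean midpoint libraries. Markers of other leukocytes had counts as well, and 12 T and NK cell markers summed to 2.62 to 19.1 CPM and 7 neutrophil markers to 19.6 to 93 CPM over the 18 libraries. Each fold change was tested by the quasi-likelihood method of edgeR and its p adjusted by Benjamini-Hochberg over the 16352 genes that passed the filter and a threshold of 0.05. Whether the myeloid counts came from macrophages in the sort or from the mCherry-positive carcinoma cells was not tested.

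**Figure D1:**
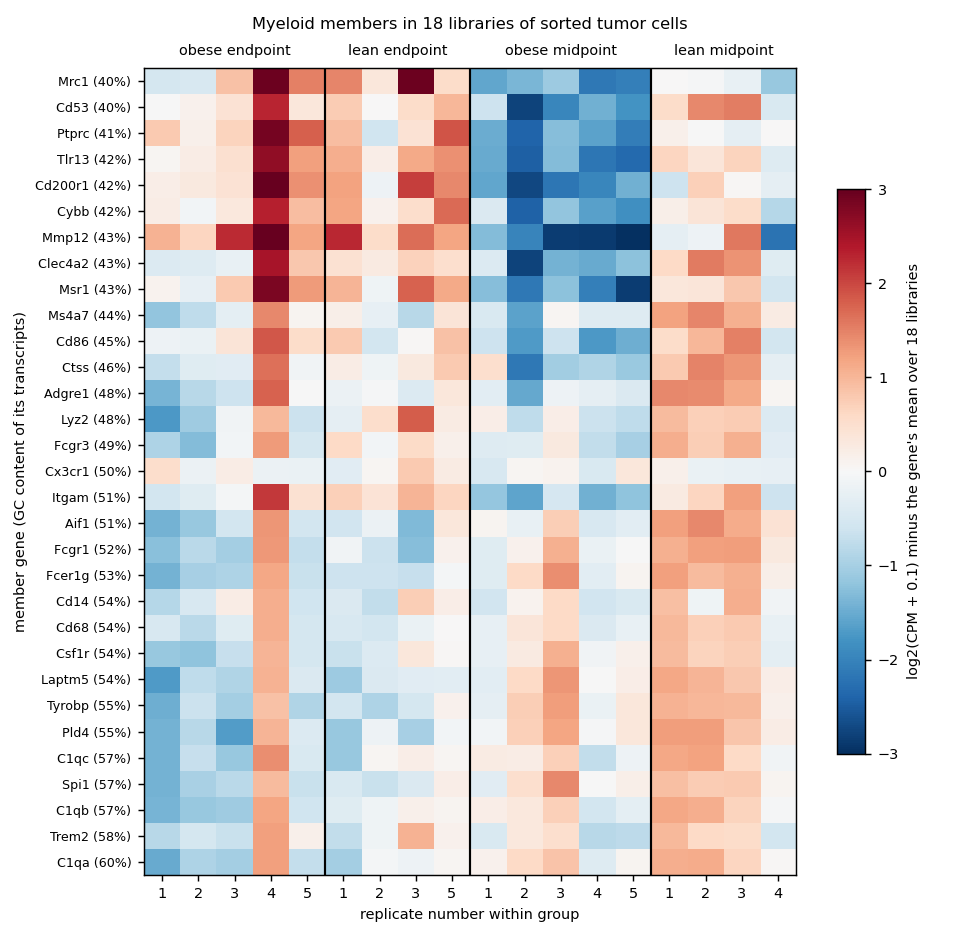
Level of the 31 members in each of the 18 libraries, as log2 of CPM plus 0.1 minus the gene's mean over the libraries, with genes ordered down the page by the GC content of their transcripts and the groups, left to right, obese endpoint, lean endpoint, obese midpoint and lean midpoint. Obese endpoint replicate 4 is high for 30 of the 31 members within its group, and the genes of low GC content are low in the obese midpoint libraries.

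Among the surface and adhesion genes, Itgam and Adgre1 encode CD11b and F4/80, the proteins most used to mark mouse macrophages. Of the 7 genes, 3 rose over time in obese tumors, where 37.8% of all genes did, and 2 fell in lean tumors, where 9.5% of all genes did. Itgam (ENSMUSG00000030786) was counted over chr7:128062640-128128160 of mm10. Itgam had 11, 12.6, 15.6, 70.4 and 22.4 CPM in obese endpoint tumors, against 26.7, 21.6, 32.9 and 25.6 CPM in lean endpoint tumors. At midpoint Itgam had 7.14, 5.35, 11.4, 5.86 and 6.97 CPM in obese tumors, against 19.6, 25.3, 37.9 and 10.4 CPM in lean tumors. For Itgam the endpoint groups overlapped, with 3 of 5 obese libraries below every lean one and 1 above every lean one, and 4 of 5 obese midpoint libraries lay below every lean one. Between endpoint and midpoint Itgam rose in obese tumors by log2 1.84 ± 0.44 (SE, edgeR adjusted p = 0.000844) and had a lean value of 0.20 ± 0.47 (SE, edgeR adjusted p = 0.769). Adgre1 (ENSMUSG00000004730) was counted over chr17:57358686-57483529. Adgre1 had 4.45, 6.62, 7.72, 40.9 and 11.7 CPM in obese endpoint tumors, against 10.5, 11.6, 8.86 and 15.1 CPM in lean endpoint tumors. At midpoint Adgre1 had 9.46, 4.03, 10.7, 9.81 and 8.69 CPM in obese tumors, against 32.4, 31.9, 26.3 and 12.4 CPM in lean tumors. Adgre1 overlapped between the diets at endpoint, with 3 of 5 obese libraries below every lean one and 1 above every lean one, and all 5 obese midpoint libraries lay below the 4 lean ones. The endpoint over midpoint log2 fold change of Adgre1 was 0.74 ± 0.46 (SE, edgeR adjusted p = 0.151) in obese tumors and -1.16 ± 0.51 (SE, edgeR adjusted p = 0.0875) in lean tumors. Without obese endpoint replicate 4 these were -0.17 (edgeR adjusted p = 0.645) in obese and -1.20 (edgeR adjusted p = 0.0121) in lean tumors. Itgam and Adgre1 were chosen on their midpoint values, so their p-values over time are not independent of the choice.

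Cd53, a tetraspanin of leukocytes, and Ptprc, the CD45 phosphatase of all leukocytes, rose over time in obese tumors. Cd53 had 7.62, 8.4, 10.4, 37.6 and 9.72 CPM in obese endpoint tumors, against 13.1, 7.67, 11.2 and 15.4 CPM in lean endpoint tumors. At midpoint Cd53 had 4.88, 1.02, 1.9, 2.76 and 2.11 CPM in obese tumors, against 11.3, 20.8, 22.3 and 5.5 CPM in lean tumors. Endpoint values of Cd53 overlapped between diets, with 1 of 5 obese libraries below every lean one and 1 above every lean one, and all 5 obese midpoint libraries lay below the 4 lean ones. Ptprc had 6.9, 4.41, 6.36, 29.6 and 14 CPM in obese endpoint tumors, against 7.57, 2.59, 5.41 and 15 CPM in lean endpoint tumors. At midpoint Ptprc had 1.35, 0.672, 1.58, 1.22 and 0.867 CPM in obese tumors, against 4.4, 3.95, 3.26 and 4.02 CPM in lean tumors. For Ptprc the endpoint groups overlapped, with 1 of 5 obese libraries above every lean one, whereas all 5 obese midpoint libraries lay below the 4 lean ones. In obese tumors Cd53 rose over time by log2 2.53 ± 0.49 (SE, edgeR adjusted p = 0.000123), and its endpoint libraries all lay above its midpoint libraries. Cd53 was chosen on its midpoint values, so this p and the lack of overlap are not independent of the choice. Ptprc rose by log2 3.42 ± 0.50 (SE, edgeR adjusted p = 7.66e-06) in the same comparison, with all 5 endpoint libraries above all 5 midpoint libraries. At endpoint Ptprc had an obese over lean log2 fold change of 0.68 ± 0.48 (SE, edgeR adjusted p = 0.999).

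Laptm5 and Cd68 encode lysosomal membrane proteins of blood and phagocytic cells, and Aif1 the calcium-binding protein Iba1. Laptm5 had 5.63, 10.7, 9.75, 37.8 and 13.5 CPM in obese endpoint tumors, against 8.54, 13.6, 14.5 and 14.8 CPM in lean endpoint tumors. At midpoint Laptm5 had 14.6, 27.8, 45.9, 18.3 and 21 CPM in obese tumors, against 41, 37.2, 32 and 21.1 CPM in lean tumors. Laptm5 overlapped between the diets at endpoint, with 1 of 5 obese libraries below every lean one and 1 above every lean one, and 3 of 5 obese midpoint libraries lay below every lean one, with 1 above every lean one. Each lean midpoint library lay above each lean endpoint library, and Laptm5 fell over time in lean tumors by 1.35 ± 0.45 (SE, edgeR adjusted p = 0.0294) on the log2 scale. Cd68 had 36, 28.7, 38.8, 107 and 34.8 CPM in obese endpoint tumors, against 36.1, 34.5, 43.9 and 50.6 CPM in lean endpoint tumors. At midpoint Cd68 had 42.5, 64.4, 76.6, 37.2 and 43 CPM in obese tumors, against 99.1, 83.2, 86.3 and 42.7 CPM in lean tumors. Endpoint values of Cd68 overlapped between diets, with 1 of 5 obese libraries below every lean one and 1 above every lean one, and 2 of 5 obese midpoint libraries lay below every lean one. Cd68 had an obese over lean log2 fold change of 0.25 ± 0.34 (SE, edgeR adjusted p = 0.999) at endpoint. Aif1 spanned 1.45 to 11.1 CPM over the 18 libraries and fell over time in lean tumors by 1.44 ± 0.50 (SE, edgeR adjusted p = 0.0351) on the log2 scale.

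Csf1r (ENSMUSG00000024621), the receptor for the macrophage growth factors Csf1 and Il34, passed no test of fold change with all 18 libraries. Csf1r had 4.89, 4.69, 6.75, 22.2 and 7.54 CPM in obese endpoint tumors, against 6.84, 8.14, 13.8 and 11.1 CPM in lean endpoint tumors. At midpoint Csf1r had 9.19, 13.1, 22.9, 10.1 and 12.2 CPM in obese tumors, against 21.1, 17.5, 18.2 and 8.92 CPM in lean tumors. For Csf1r the endpoint groups overlapped, with 3 of 5 obese libraries below every lean one and 1 above every lean one, and the midpoint groups overlapped as well, with 1 above every lean one. Its log2 fold change was -0.12 ± 0.40 (SE, edgeR adjusted p = 0.999) for obese over lean at endpoint, -0.55 ± 0.38 (SE, edgeR adjusted p = 0.197) for endpoint over midpoint in obese and -0.72 ± 0.43 (SE, edgeR adjusted p = 0.196) in lean tumors. Without obese endpoint replicate 4 Csf1r fell over time in obese tumors, at -1.17 (edgeR adjusted p = 0.00184). Cx3cr1, the receptor for the chemokine Cx3cl1, was near the detection limit, with 0.161 to 0.525 CPM, and none of its 3 tested log2 fold changes passed the threshold.

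**Figure D2:**
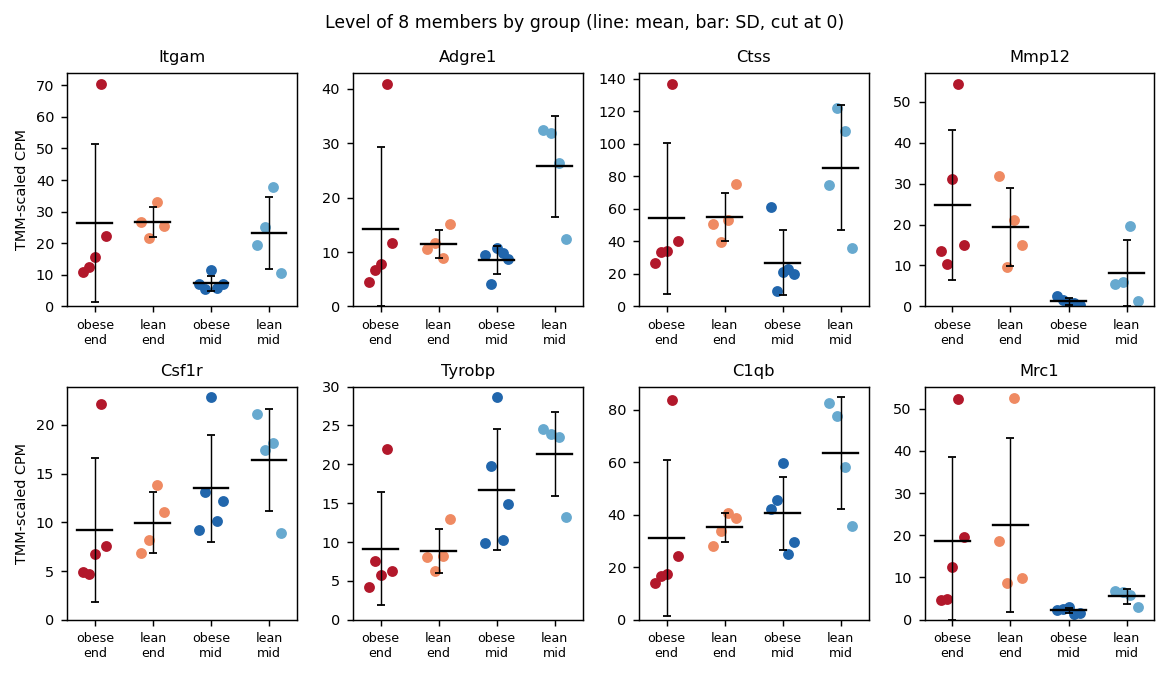
TMM-scaled CPM of 8 members, 1 point per library, in obese endpoint, lean endpoint, obese midpoint and lean midpoint tumors from left to right, with the group mean as a line and the SD as a bar cut at 0. Itgam, Mmp12 and Mrc1 are lowest in obese midpoint tumors, whereas Csf1r and Tyrobp are not, and obese endpoint replicate 4 is the highest point of its group in all 8 panels.

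Of the 4 receptors for sugars, lipoproteins and debris, 3 rose over time in obese tumors, against 37.8% of all genes, and 1 of these, Mrc1, rose in lean tumors as well, against 21.4%. Mrc1 had 4.69, 4.82, 12.5, 52.2 and 19.5 CPM in obese endpoint tumors, against 18.8, 8.57, 52.6 and 9.91 CPM in lean endpoint tumors. At midpoint Mrc1 had 2.22, 2.55, 3.12, 1.46 and 1.55 CPM in obese tumors, against 6.8, 6.62, 5.79 and 3.04 CPM in lean tumors. Mrc1 overlapped between the diets at endpoint, with 2 of 5 obese libraries below every lean one, and 4 of 5 obese midpoint libraries lay below every lean one. Mrc1, the mannose receptor CD206, rose over time in obese tumors by log2 3.11 ± 0.61 (SE, edgeR adjusted p = 0.000155) and in lean tumors by 2.01 ± 0.65 (SE, edgeR adjusted p = 0.0256), with no overlap of endpoint and midpoint libraries in either. Msr1 had 4.56, 3.58, 7.34, 30.7 and 10.4 CPM in obese endpoint tumors, against 8.64, 3.87, 14.7 and 9.45 CPM in lean endpoint tumors. At midpoint Msr1 had 1.69, 0.88, 1.76, 0.95 and 0.506 CPM in obese tumors, against 5.41, 5.43, 7.46 and 2.87 CPM in lean tumors. Endpoint values of Msr1 overlapped between diets, with 1 of 5 obese libraries below every lean one and 1 above every lean one, and all 5 obese midpoint libraries lay below the 4 lean ones. Msr1, scavenger receptor A, rose in obese tumors by 3.29 ± 0.54 (SE, edgeR adjusted p = 2.44e-05) and had a lean log2 fold change of 0.79 ± 0.55 (SE, edgeR adjusted p = 0.269). Clec4a2 had 1.38, 1.4, 1.59, 10.8 and 3.36 CPM in obese endpoint tumors, against 2.58, 2.29, 3.09 and 2.69 CPM in lean endpoint tumors. At midpoint Clec4a2 had 1.39, 0.185, 0.634, 0.585 and 0.74 CPM in obese tumors, against 2.89, 5.74, 4.87 and 1.44 CPM in lean tumors. For Clec4a2 the endpoint groups overlapped, with 3 of 5 obese libraries below every lean one and 2 above every lean one, whereas all 5 obese midpoint libraries lay below the 4 lean ones. Clec4a2, a C-type lectin receptor with near copies in the genome, rose over time in obese tumors by 2.37 ± 0.57 (SE, edgeR adjusted p = 0.000955). Clec4a2 was chosen on its midpoint values, so this p is not independent of the choice. Its obese over lean log2 fold change at endpoint was 0.48 ± 0.57 (SE, edgeR adjusted p = 0.999). Cd14, the co-receptor for bacterial lipopolysaccharide, spanned 5.15 to 20.3 CPM and passed no test of fold change.

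Of the 5 Fc receptors and signalling chains, 3 fell over time in lean tumors, against 9.5% of all genes, and 1 in obese tumors, against 36.1%. None rose, against 21.4% of all genes in lean and 37.8% in obese tumors. Fcgr1 had 4.16, 5.63, 4.84, 24.6 and 6.08 CPM in obese endpoint tumors, against 9.24, 6.3, 4.04 and 10.9 CPM in lean endpoint tumors. At midpoint Fcgr1 had 7.69, 10.9, 20.9, 8.64 and 9.88 CPM in obese tumors, against 21.1, 23.6, 24.1 and 12.4 CPM in lean tumors. Fcgr1 overlapped between the diets at endpoint, with 1 of 5 obese libraries above every lean one, and 4 of 5 obese midpoint libraries lay below every lean one. In lean tumors Fcgr1, the high-affinity receptor for immunoglobulin G, fell over time by 1.42 ± 0.49 (SE, edgeR adjusted p = 0.0344) on the log2 scale, with no overlap. Fcer1g had 11.6, 15.7, 16.3, 69.7 and 19.6 CPM in obese endpoint tumors, against 20.3, 20.3, 19.4 and 30.2 CPM in lean endpoint tumors. At midpoint Fcer1g had 24.5, 47.3, 82.3, 25.2 and 33.2 CPM in obese tumors, against 73.5, 60.9, 65.5 and 35.2 CPM in lean tumors. Endpoint values of Fcer1g overlapped between diets, with 3 of 5 obese libraries below every lean one and 1 above every lean one, and 3 of 5 obese midpoint libraries lay below every lean one, with 1 above every lean one. Fcer1g, the signalling chain shared by these receptors, fell in lean tumors by 1.38 ± 0.48 (SE, edgeR adjusted p = 0.0348) on the log2 scale. Fcgr3 had 6.31, 4.83, 11.4, 29.7 and 8.31 CPM in obese endpoint tumors, against 18.5, 11.5, 18 and 13.4 CPM in lean endpoint tumors. At midpoint Fcgr3 had 9.32, 9.33, 14.9, 7.23 and 6.03 CPM in obese tumors, against 25.8, 20.1, 25.3 and 9.48 CPM in lean tumors. For Fcgr3 the endpoint groups overlapped, with 4 of 5 obese libraries below every lean one and 1 above every lean one, and 4 of 5 obese midpoint libraries lay below every lean one. Fcgr3, a low-affinity receptor, had an obese over lean log2 fold change of -0.34 ± 0.42 (SE, edgeR adjusted p = 0.999) at endpoint. Tyrobp had 4.23 to 22 CPM in obese endpoint, 6.25 to 12.9 CPM in lean endpoint, 9.88 to 28.7 CPM in obese midpoint and 13.2 to 24.5 CPM in lean midpoint libraries. Tyrobp, the DAP12 adaptor of myeloid receptors, fell over time by 1.26 ± 0.44 (SE, edgeR adjusted p = 0.0351) on the log2 scale in lean tumors. In obese tumors Tyrobp fell by 0.87 ± 0.39 (SE, edgeR adjusted p = 0.0495), while DESeq2 called 0 members lower in that comparison. Trem2, a lipid-sensing receptor that signals through Tyrobp, spanned 0.694 to 3.24 CPM and passed no test of fold change.

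Of the 3 inhibitory, costimulatory and Ms4a genes, Cd200r1 and Cd86 rose over time in obese tumors, against 37.8% of all genes. Cd200r1, an inhibitory receptor for Cd200, had the largest fold change of the members. Cd200r1 had 0.662, 0.72, 0.797, 5.8 and 1.63 CPM in obese endpoint tumors, against 1.45, 0.507, 2.72 and 1.72 CPM in lean endpoint tumors. At midpoint Cd200r1 had 0.129, 0, 0.0488, 0.0731 and 0.144 CPM in obese tumors, against 0.336, 1.0, 0.582 and 0.453 CPM in lean tumors. Cd200r1 overlapped between the diets at endpoint, with 1 of 5 obese libraries above every lean one, and all 5 obese midpoint libraries lay below the 4 lean ones. Its 5 obese midpoint libraries held 0 to 8 counts each, and the count of 0 allows up to 0.0695 CPM, from 3 counts in that library and for counting error only. Cd200r1 rose in obese tumors by log2 4.48 ± 0.73 (SE, edgeR adjusted p = 2.23e-05), a size that depends on the prior count since the midpoint counts were so few. Cd200r1 was chosen on these midpoint values, so this p is not independent of the choice. Cd86 had 1.49 to 6.59 CPM in obese endpoint, 1.14 to 3.28 CPM in lean endpoint, 0.457 to 1.1 CPM in obese midpoint and 1.15 to 5.11 CPM in lean midpoint libraries. In obese tumors Cd86, a costimulatory ligand of CD28, rose by 1.97 ± 0.47 (SE, edgeR adjusted p = 0.000838). Ms4a7 had 2.74, 3.71, 5.18, 17.4 and 6.78 CPM in obese endpoint tumors, against 7.16, 5.38, 3.55 and 8.31 CPM in lean endpoint tumors. At midpoint Ms4a7 had 4.64, 2.04, 6.66, 4.86 and 4.86 CPM in obese tumors, against 14.9, 17.7, 13.4 and 7.52 CPM in lean tumors. Endpoint values of Ms4a7 overlapped between diets, with 1 of 5 obese libraries below every lean one and 1 above every lean one, and all 5 obese midpoint libraries lay below the 4 lean ones. Ms4a7, a membrane-spanning protein of macrophages, had log2 fold changes over time of 0.63 ± 0.41 (SE, edgeR adjusted p = 0.171) in obese and -1.14 ± 0.46 (SE, edgeR adjusted p = 0.0662) in lean tumors.

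The 3 chains of complement C1q, secreted mostly by macrophages, passed no test of fold change in any comparison. C1qa had 9.79, 14.9, 13.8, 66.1 and 17.2 CPM in obese endpoint tumors, against 13.8, 26.9, 25.6 and 29.5 CPM in lean endpoint tumors. At midpoint C1qa had 30.8, 43.1, 50.9, 21.5 and 29.7 CPM in obese tumors, against 60.1, 61.3, 44.2 and 28.8 CPM in lean tumors. For C1qa the endpoint groups overlapped, with 2 of 5 obese libraries below every lean one and 1 above every lean one, and 1 of 5 obese midpoint libraries lay below every lean one. C1qb had 13.8, 16.7, 17.4, 83.9 and 24.2 CPM in obese endpoint tumors, against 28.3, 33.7, 40.6 and 38.8 CPM in lean endpoint tumors. At midpoint C1qb had 42.3, 45.6, 59.9, 25.1 and 29.6 CPM in obese tumors, against 82.5, 77.5, 58.2 and 35.8 CPM in lean tumors. C1qb overlapped between the diets at endpoint, with 4 of 5 obese libraries below every lean one and 1 above every lean one, and 2 of 5 obese midpoint libraries lay below every lean one. C1qc ranged from 6.75 to 48 CPM over the 18 libraries. On the log2 scale the time fold changes were -0.53 ± 0.41 for C1qa, -0.38 ± 0.40 for C1qb and -0.19 ± 0.44 for C1qc in obese tumors (SE), and -1.02 ± 0.46, -0.85 ± 0.45 and -0.92 ± 0.50 for the same genes in lean tumors.

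Of the 5 lysosomal, secreted and sensor genes, 2 rose over time in obese tumors, Mmp12 and Tlr13, a share near the 37.8% of all genes, and 1 fell in lean tumors, Pld4, against 9.5% of all genes. Ctss, the protease cathepsin S, held the highest single value of all members. Ctss had 26.4, 33.5, 34.2, 137 and 40.2 CPM in obese endpoint tumors, against 50.8, 39.8, 53.3 and 75 CPM in lean endpoint tumors. At midpoint Ctss had 61, 9.73, 21.1, 23.2 and 19.9 CPM in obese tumors, against 74.7, 122, 108 and 35.9 CPM in lean tumors. Endpoint values of Ctss overlapped between diets, with 3 of 5 obese libraries below every lean one and 1 above every lean one, and 4 of 5 obese midpoint libraries lay below every lean one. Its endpoint over midpoint log2 fold change was 1.01 ± 0.47 (SE, edgeR adjusted p = 0.060) in obese and -0.64 ± 0.52 (SE, edgeR adjusted p = 0.35) in lean tumors. Lyz2 had 9.82, 15.5, 30.03, 64 and 20.9 CPM in obese endpoint tumors, against 26.8, 46.8, 115 and 38.7 CPM in lean endpoint tumors. At midpoint Lyz2 had 37.4, 19.3, 37.1, 20.7 and 19.3 CPM in obese tumors, against 63.3, 53.3, 54.9 and 24.6 CPM in lean tumors. For Lyz2 the endpoint groups overlapped, with 3 of 5 obese libraries below every lean one, and 3 of 5 obese midpoint libraries lay below every lean one. Lyz2, lysozyme M, whose reads can be shared with its near copy Lyz1, had the smallest p of the members at endpoint, with an obese over lean log2 fold change of -1.02 ± 0.46 (SE, edgeR adjusted p = 0.989). Mmp12 had 13.5, 10.3, 31.2, 54.3 and 15 CPM in obese endpoint tumors, against 32, 9.72, 21.2 and 15.1 CPM in lean endpoint tumors. At midpoint Mmp12 had 2.61, 1.57, 0.829, 0.804 and 0.397 CPM in obese tumors, against 5.41, 5.92, 19.8 and 1.34 CPM in lean tumors. Mmp12 overlapped between the diets at endpoint, with 1 of 5 obese libraries above every lean one, and 3 of 5 obese midpoint libraries lay below every lean one. Mmp12, macrophage elastase, rose over time in obese tumors by log2 4.31 ± 0.67 (SE, edgeR adjusted p = 1.36e-05) and had a lean value of 1.26 ± 0.65 (SE, edgeR adjusted p = 0.141). Tlr13 had 3.66, 4.1, 4.9, 22.8 and 8.29 CPM in obese endpoint tumors, against 7.57, 4.05, 7.79 and 9.23 CPM in lean endpoint tumors. At midpoint Tlr13 had 1.16, 0.556, 1.37, 0.694 and 0.614 CPM in obese tumors, against 5.49, 4.54, 5.57 and 2.64 CPM in lean tumors. Endpoint values of Tlr13 overlapped between diets, with 1 of 5 obese libraries below every lean one and 1 above every lean one, and all 5 obese midpoint libraries lay below the 4 lean ones. Tlr13, a mouse sensor of bacterial ribosomal RNA, rose in obese tumors by 3.31 ± 0.47 (SE, edgeR adjusted p = 5.59e-06), with all endpoint libraries above all midpoint libraries. Ctss, Mmp12 and Tlr13 were chosen on their midpoint values, so their p-values and lack of overlap over time are not independent of the choice. Pld4 had 3.42, 5.18, 2.85, 18.9 and 6.96 CPM in obese endpoint tumors, against 4.19, 8.37, 4.66 and 8.8 CPM in lean endpoint tumors. At midpoint Pld4 had 8.87, 15.4, 21.3, 9.04 and 11.9 CPM in obese tumors, against 22.4, 22.5, 16.7 and 11 CPM in lean tumors. For Pld4 the endpoint groups overlapped, with 2 of 5 obese libraries below every lean one and 1 above every lean one, and 2 of 5 obese midpoint libraries lay below every lean one. Pld4, an exonuclease of the endolysosome, fell over time in lean tumors by 1.48 ± 0.47 (SE, edgeR adjusted p = 0.0249) on the log2 scale. Cybb had 3.97 to 21.6 CPM in obese endpoint, 4.58 to 13.9 CPM in lean endpoint, 0.695 to 3.06 CPM in obese midpoint and 2.29 to 6.17 CPM in lean midpoint libraries. In obese tumors Cybb, the catalytic chain of the phagocyte NADPH oxidase, rose by 2.45 ± 0.48 (SE, edgeR adjusted p = 0.000149). Spi1, which encodes PU.1, ranged from 2.52 to 18.9 CPM, with log2 fold changes over time of -0.82 ± 0.40 (SE, edgeR adjusted p = 0.0693) in obese and -0.98 ± 0.44 (SE, edgeR adjusted p = 0.0951) in lean tumors.

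Obese and lean tumors at endpoint were compared to ask whether the sorted cells differed in myeloid transcripts late in tumor growth, in libraries that had no part in choosing the members. No member passed edgeR's adjusted threshold of 0.05 in either direction, against 0.00612% of all 16352 genes tested called higher in obese tumors and 0% lower. DESeq2 called 0 members, against 0.0367% of all genes higher and 0.0428% lower, and limma-voom called 0 members and 0% of all genes. In the edgeR fit 1 of the 31 members, Lyz2, was under 0.05 before adjustment. The median log2 fold change was 0.19 over the members and -0.00485 over all genes, and 21 of 31 members had a positive value, against 49.3% of all genes. There were 0 members whose CPM did not overlap between the diets, against 0.636% of all genes higher and 1.33% lower. Without obese endpoint replicate 4 the median was -0.56, so the sign of the median rested on that library, and again 0 members were called, against 0.00613% of all genes higher and 0% lower. The fold changes of Adgre1, Cd68 and Clec4a2 were positive with that library and -0.59, -0.24 and -0.46 without it. Lyz2 was then at -1.57 (edgeR adjusted p = 1.0) and Fcgr3 at -0.98 (edgeR adjusted p = 1.0).

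Endpoint and midpoint of obese mice were compared for change during tumor growth, and here 11 of the 31 members rose. These were Itgam, Cd53, Ptprc, Mrc1, Msr1, Clec4a2, Cd200r1, Cd86, Mmp12, Tlr13 and Cybb, with log2 fold changes of 1.84 to 4.48. They made up 35.5% of the members, near the 37.8% of all genes called higher, so the share is not a result about the members. Tyrobp alone fell, against 36.1% of all genes called lower. Endpoint CPM lay above midpoint CPM in all libraries for 9 members, against 31.3% of all genes, and below in all for 0, against 28.9%. The median log2 fold change was 0.26 over the members and -0.00148 over all genes. Without obese endpoint replicate 4, 11 members were called higher and 12 lower, against 36.7% and 35.4% of all genes, so that the count of falls rested on that library. Itgam was then at 1.07 (edgeR adjusted p = 0.00414) and Msr1 at 2.48 (edgeR adjusted p = 4.36e-05). Obese midpoint libraries belong to the comparison that chose 9 of the members, and 6 of those 9 are among the 11.

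In lean mice 1 member, Mrc1, rose between midpoint and endpoint, against 21.4% of all genes called higher. Laptm5, Aif1, Fcgr1, Fcer1g, Tyrobp and Pld4 fell, 6 of 31 against 9.5% of all genes called lower. Of these 6 genes, 3 encode Fc receptors or signalling chains. The same 7 genes were the ones whose endpoint and midpoint CPM did not overlap, against 19.9% of all genes higher and 13.2% lower. The members' median log2 fold change was -0.49, against 0.0359 for all genes. Single libraries decided these counts. Shares of all genes without single lean libraries are not given, so the counts without them show only how the calls moved. Without lean midpoint replicate 1 or without lean endpoint replicate 3 there were 0 calls in either direction, without lean midpoint replicate 4 there were 0 higher and 8 lower, without lean endpoint replicate 1 there was 1 lower, and without lean midpoint replicate 2 there were 3 lower. Without lean midpoint replicate 1 the log2 fold changes were 2.07 for Mrc1, -1.27 for Laptm5, -1.45 for Fcgr1, -1.31 for Fcer1g and -1.41 for Pld4, and without lean endpoint replicate 3 they were 1.16, -1.41, -1.20, -1.32 and -1.34 for the same genes. Without lean midpoint replicate 3 there were 2 higher and 5 lower. Leaving out obese endpoint replicate 4, which enters through the shared estimate of the spread, gave 2 higher and 13 lower, against 20.1% and 11.1% of all genes. Lean midpoint libraries also belong to the comparison that chose 9 of the members.

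At midpoint, the comparison that chose part of the set, the members were lower in obese than in lean tumors. All 9 chosen members are among the 13 of 31 that edgeR placed under the threshold and lower in obese tumors, beside 12.8% of all genes, and 0 were higher, beside 16.7%, so these counts were in part fixed by the choice and are not read as a test. The fold change was negative for 30 of 31, beside 50% of all genes. CPM did not overlap for 9 members, all lower in obese tumors, beside 3.14% of all genes lower and 4.9% higher. The 9 members chosen on these values had log2 fold changes of -2.80 for Cd200r1, -2.70 for Mmp12, -2.55 for Cd53, -2.38 for Clec4a2, -2.38 for Tlr13, -1.66 for Itgam, -1.66 for Ctss, -1.59 for Adgre1 and -1.54 for Ms4a7. Among the 22 others the values ran from -2.19 for Msr1 to 0.09 for Cx3cr1. Just inside the 13 lay Ms4a7, with the smallest difference among them, and just outside lay Mrc1, at -1.36. With the midpoint libraries fitted alone, 0 members and 0 of 15200 genes were called, and without lean midpoint replicate 2 or 3 or obese midpoint replicate 2 or 3 the count of members was 0. No call is read from this comparison.

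The difference between the diet effects, endpoint minus midpoint, holds the comparison that chose members and is likewise a description. It was positive for 29 of the 31 members, beside 50.2% of all genes, with a median of 1.06 on the log2 scale, beside 0.00477 for all genes. The largest was 3.06 for Cd200r1 and the lowest -0.33 for Cx3cr1. edgeR called 0 members and 0% of all genes. Without obese endpoint replicate 4 the median was 0.31.

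The members' fold changes varied with the GC content of their transcripts. Libraries differed in how counts varied with GC content, and the fitted change in log2 CPM for each 10 points of GC was -0.729 ± 0.188 in obese endpoint, -0.585 ± 0.365 in lean endpoint, 0.982 ± 0.485 in obese midpoint and 0.268 ± 0.178 in lean midpoint libraries (SD, n = 5, 4, 5 and 4). In obese tumors the 15 members under 50% GC had a median log2 fold change over time of 2.45 and the 16 others -0.37, beside 1.44 and -0.81 for all genes split in the same way. In lean tumors the medians were 0.21 and -0.95, beside 0.72 and -0.31. At midpoint they were -1.77 and -0.52 for obese over lean, and at endpoint 0.29 and 0.03. Across the 31 genes, which are not independent replicates and share the libraries, Pearson's r of fold change with GC content was -0.87 over time in obese, -0.68 over time in lean, 0.84 between diets at midpoint and -0.29 between diets at endpoint. Over 16122 genes with a GC value it was -0.68, -0.57, 0.60 and -0.20 in the same order. With no correction for GC content, Mrc1, which rose in both diets, has 39.6% GC, and Tyrobp, which fell in both, has 54.8%. The fall of Tyrobp in obese tumors was only just past the threshold and was not called by DESeq2.

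**Figure D3:**
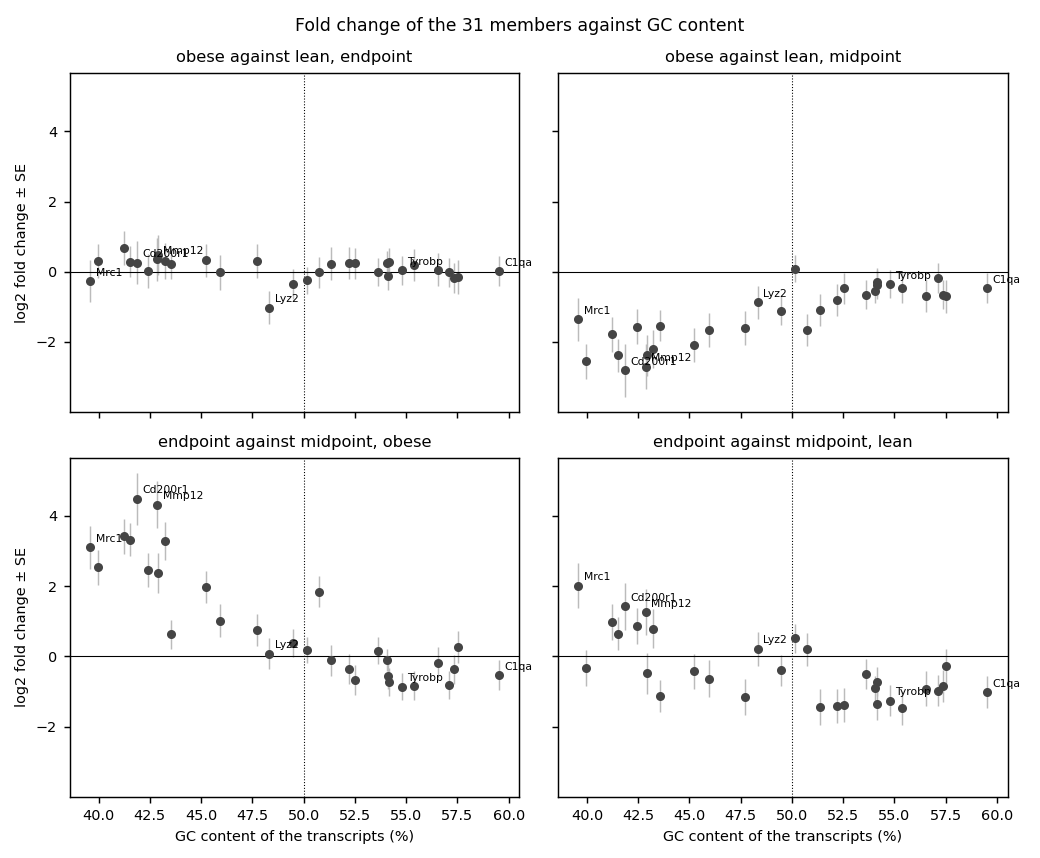
Log2 fold change of the 31 members with its SE against the GC content of their transcripts in percent, for obese against lean at endpoint and midpoint (top) and endpoint against midpoint in obese and lean tumors (bottom), with a dotted line at 50%. Over time in obese tumors the members under 50% GC have a median of 2.45 and the others -0.37, with Itgam at 1.84 right of the line and Lyz2 at 0.07 and Fcgr3 at 0.37 left of it, the midpoint diet difference runs the opposite way, and the endpoint diet difference runs from -1.02 to 0.68.

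After a correction for GC content and gene length within each library, 5 members rose over time in obese tumors, Itgam, Msr1, Cd200r1, Mmp12 and Tlr13, against 24.5% of all genes. Their corrected log2 fold changes were 1.36 (edgeR adjusted p = 0.0089) for Itgam, 1.26 (edgeR adjusted p = 0.0212) for Msr1, 2.57 (edgeR adjusted p = 0.00171) for Cd200r1, 2.03 (edgeR adjusted p = 0.00439) for Mmp12 and 1.00 (edgeR adjusted p = 0.0349) for Tlr13. Ms4a7 fell, at -1.40 (edgeR adjusted p = 0.0044), against 33.1% of all genes called lower. The correction moved the median of all genes in this comparison to -0.11, and the members' median was 0.21. Corrected values of Mrc1, 0.21 (edgeR adjusted p = 0.753), and of Ptprc, 0.80 (edgeR adjusted p = 0.0808), no longer passed. Nor did those of Cd53, 0.36 (edgeR adjusted p = 0.421), Clec4a2, 0.55 (edgeR adjusted p = 0.332), Cd86, 0.46 (edgeR adjusted p = 0.339), and Cybb, 0.20 (edgeR adjusted p = 0.653). Tyrobp was at 0.18 (edgeR adjusted p = 0.704). Without obese endpoint replicate 4 as well, 2 members were called higher and 6 lower, against 23.2% and 31.8% of all genes, with Itgam at 0.58, Msr1 at 0.55 and Tlr13 at 0.37 no longer past the threshold. Cd200r1 and Mmp12 stayed past it, but they, Itgam and Tlr13 were chosen for low values in the obese midpoint libraries, which are the baseline here, so 4 of the 5 corrected rises were not independent of the choice.

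In lean tumors the corrected fit called 0 members higher, against 11.9% of all genes, and 4 lower, Adgre1, Cd53, Cd86 and Ms4a7, against 11.8%. These 4 made up 12.9% of the members, near the share of all genes, so the count is not a result about the members. Adgre1, Cd53 and Ms4a7 were chosen for values higher in lean than in obese midpoint libraries. Lean midpoint is the baseline here, so their falls and p-values were not independent of the choice. With the correction Adgre1 was at -1.49 (edgeR adjusted p = 0.030) and Ms4a7 at -2.15 (edgeR adjusted p = 0.00235), while Mrc1 was at 0.42 (edgeR adjusted p = 0.631). None of the 6 genes that fell without the correction passed with it, and their corrected log2 fold changes were still negative, at -1.16 (edgeR adjusted p = 0.0523) for Laptm5, -1.32 (edgeR adjusted p = 0.0522) for Aif1, -1.27 (edgeR adjusted p = 0.0545) for Fcgr1, -1.18 (edgeR adjusted p = 0.0678) for Fcer1g, -0.87 (edgeR adjusted p = 0.135) for Tyrobp and -1.09 (edgeR adjusted p = 0.0758) for Pld4. Between diets at endpoint the corrected fit called 0 members, against 0.00612% of all genes higher and 0% lower, with a median of 0.02. At midpoint, the comparison that chose 9 of the members, the corrected fit placed 9 members under the threshold and lower in obese tumors, 7 of them chosen there, beside 3.69% of all genes, and 0 higher, beside 8.08%. These counts are a description, and the median was -0.99. Pearson's r of fold change with GC content over the members was then -0.17 over time in obese tumors, 0.02 in lean tumors, 0.37 between diets at midpoint and 0.16 at endpoint.

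**Figure D4:**
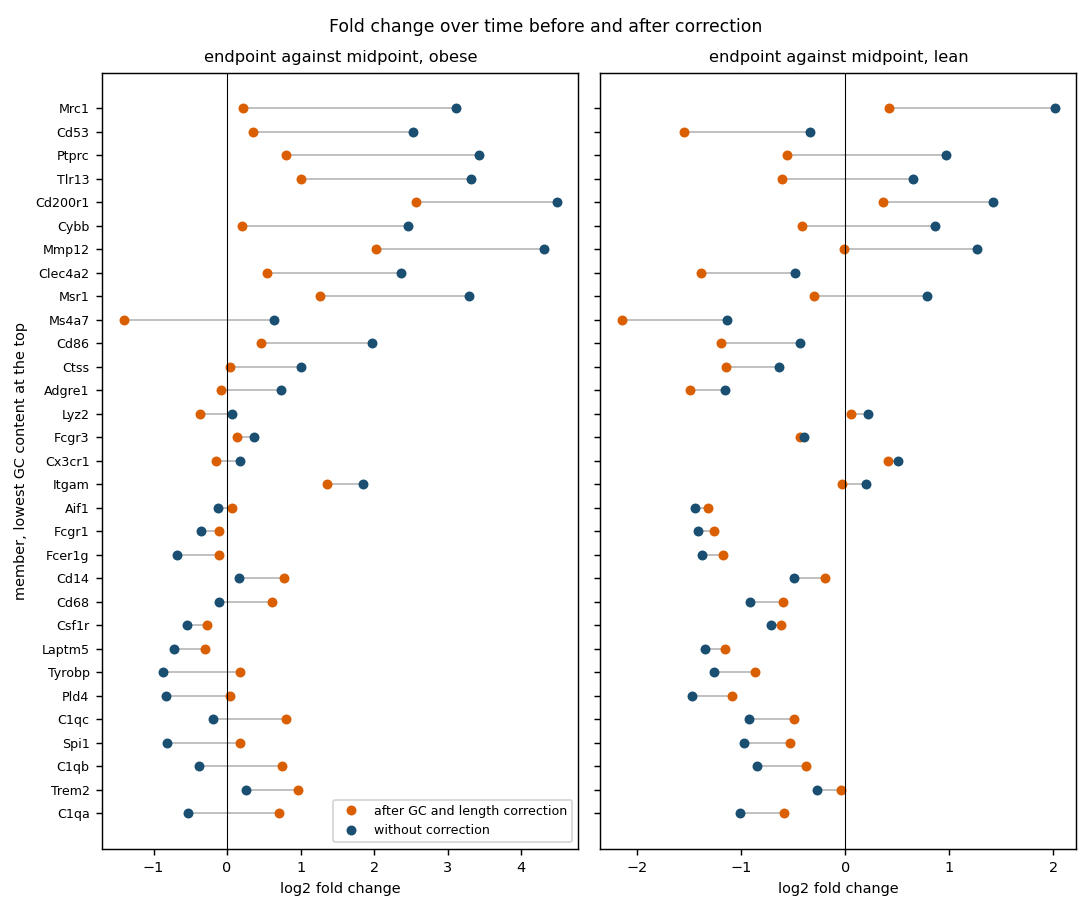
Log2 fold change at endpoint over midpoint of each member in obese (left) and lean (right) tumors, without correction in blue and after the GC and length correction in orange, with genes ordered from low GC content at the top to high at the bottom. In obese tumors the fold changes of the 15 genes under 50% GC are lower with the correction than without it, and Cd200r1 and Mmp12 stay the highest in obese tumors.

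Across libraries the other members varied with Csf1r. Over the 9 endpoint libraries Pearson's r of log2 CPM with Csf1r was positive for all 30 other members, against 51.5% of all other genes, with a median of 0.86. Of the 30 members, 23 passed an exact permutation test after Benjamini-Hochberg adjustment over 60 relations. The lowest r among those 23 was 0.73, a value reached by 1.89% of the 16351 other genes tested, whose median r with Csf1r was 0.01. The highest was C1qb, with r = 0.96 and Spearman's rho = 0.97 (exact permutation p = 4.41e-05 and 0.000165, adjusted 0.00132 and 0.00992). The lowest was Cx3cr1, with r = 0.10 and rho = 0.22 (exact permutation p = 0.80 and 0.581, adjusted 0.80 and 0.622). With Spearman's rho 13 of the 30 passed. With obese endpoint replicate 4 left out, 5 of the 30 passed with Pearson's r, the median r of the 30 was 0.73 and that of all other genes 0.0159. In the same libraries 15 members reached the r of 0.73, against 1.65% of all other genes. The 13 and the 5 have no share of all genes beside them and show only how the calls moved. Leaving out the 2 libraries farthest from the median of Csf1r, obese endpoint replicate 4 and lean endpoint replicate 3, gave a median r of 0.73 and a range of 0.01 to 0.98 over 7 libraries.

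Over the 9 midpoint libraries, which chose 9 of the members, r with Csf1r was again positive for all 30, with a median of 0.67. It split by GC content, with a median of 0.49 for the 15 members under 50% GC and 0.87 for the 15 others, while at endpoint the medians were 0.84 and 0.89. Csf1r itself has 54.1% GC. Spi1, which encodes PU.1, had the highest r at midpoint, 0.95, with rho = 0.95 (exact permutation p = 4.41e-05 and 0.000353, adjusted 0.00132 and 0.0106), and 0.93 without obese midpoint replicate 3 and lean midpoint replicate 1. Cd200r1 had r = 0.16 and Ctss r = 0.28 with Csf1r at midpoint. Each time point pools obese and lean libraries, and the permutations did not keep the diets apart, so a difference between diets can enter r and its p. Libraries also share depth and GC trend, and the part of these 2 in the correlations was not tested.

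**Figure D5:**
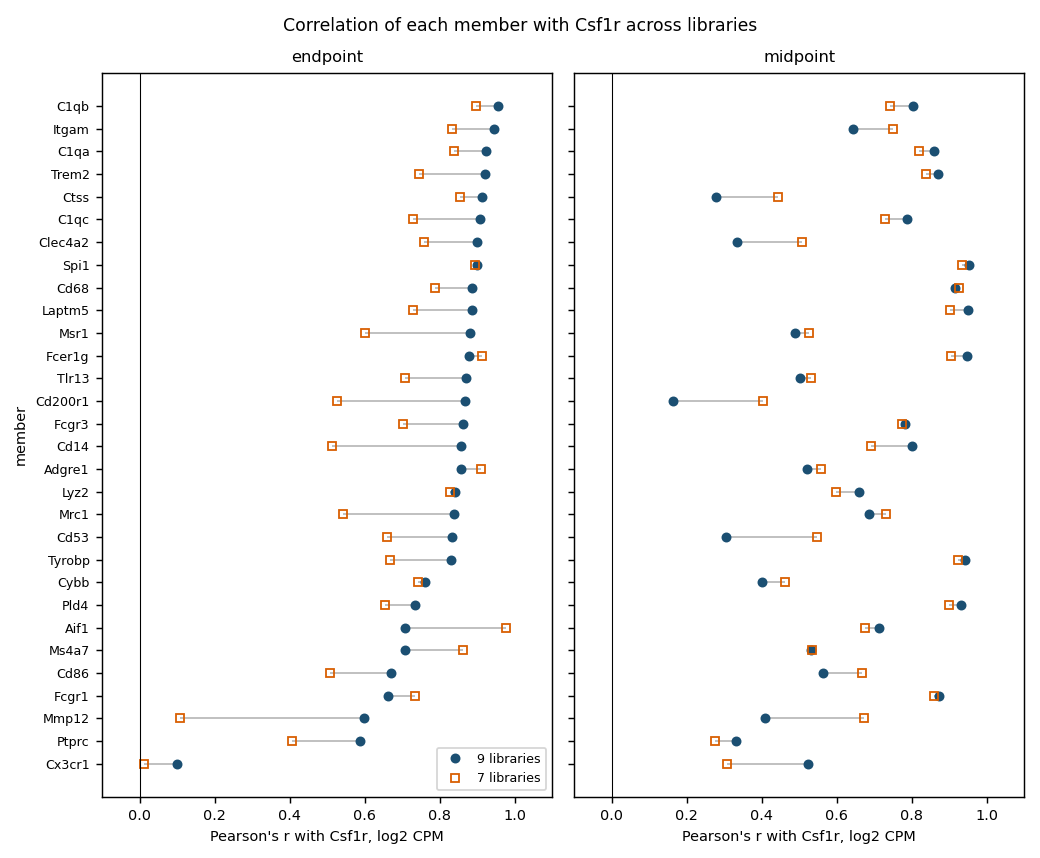
Pearson's r of log2 CPM of each of the 30 other members with Csf1r, over the 9 libraries of a time point (filled circles) and over 7 libraries without the 2 farthest from the median Csf1r level (open squares), at endpoint (left) and midpoint (right). All filled circles lie above 0, and at midpoint Cd200r1, Ctss and Cd53 lie far below Spi1 and Laptm5.

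Genes outside the set whose deviations from the group mean most resembled the members' mean deviation, over the 18 libraries, included several known from myeloid cells. Pirb, a paired inhibitory receptor with near copies such as Pira2, came first with a Pearson's r of 0.96. Ctsh, a lysosomal cathepsin, Pik3r5, Cln8 and C3ar1, the receptor for complement C3a, followed with 0.93, 0.93, 0.93 and 0.92. Next came Syk, the kinase that Fc receptors and Tyrobp signal through, Entpd1, Csf2rb, App, Frmd4b, Cd84, Slc8a1, Sirpa, Cfp and Pira2, down to 0.91. Of the 31 members, 16 were among the first 100 of all 16352 genes in this order, and their median rank was 90. The members enter the mean they are ranked against, so their ranks are a description.

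A wider list of 82 other myeloid genes, 79 of which were tested, was read the same way. Between diets at endpoint 0 of 79 were called. Over time in obese tumors 27 rose and 17 fell, with a median log2 fold change of 0.16, against 37.8% and 36.1% of all genes. In lean tumors 8 rose and 17 fell, with a median of -0.35, against 21.4% and 9.5% of all genes. Of the 6 toll-like receptors, 5 rose and 1 fell over time in obese tumors, and 4 rose and 0 fell after the GC and length correction. Tlr4, the receptor for lipopolysaccharide, rose by log2 3.51 ± 0.38 (SE, edgeR adjusted p = 5.26e-07) in obese and 2.60 ± 0.41 (SE, edgeR adjusted p = 0.00027) in lean tumors. Spp1, osteopontin, rose in obese tumors by 2.41 ± 0.32 (SE, edgeR adjusted p = 2.72e-06), and Clec4e, the lectin receptor Mincle, by 3.56 ± 0.49 (SE, edgeR adjusted p = 3.90e-06). Of 6 transcription factors, Klf4 rose in obese tumors by 1.86 ± 0.23 and in lean tumors by 1.23 ± 0.26, and Runx1 rose in obese tumors by 1.42 ± 0.20. Irf8 and Irf5 fell in lean tumors, with log2 fold changes of -1.07 ± 0.24 and -1.18 ± 0.27, and Cyba, the partner of Cybb in the NADPH oxidase, fell in obese tumors, at -1.48 ± 0.21. At endpoint the smallest p between diets among these genes belonged to Gpnmb, at -0.69 ± 0.20 (SE, edgeR adjusted p = 0.888), and Cd9, at -0.83 ± 0.26 (SE, edgeR adjusted p = 0.893), neither of which passed. After the GC and length correction Tlr4 was at 0.98, Spp1 at 1.11, Clec4e at 1.196 and Runx1 at 0.44 over time in obese tumors, all still past the threshold, and Cyba at -0.19, no longer past it. With the correction 21 of the 79 rose and 14 fell in obese tumors, against 24.5% and 33.1% of all genes, and 5 rose and 12 fell in lean tumors, against 11.9% and 11.8%.

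The ligands of the member receptors were read as well. Csf1, the main ligand of Csf1r, averaged 419 ± 62.2 CPM in obese endpoint, 444 ± 76 CPM in lean endpoint, 282 ± 44.5 CPM in obese midpoint and 316 ± 49.3 CPM in lean midpoint tumors (SD, n = 5, 4, 5 and 4). Csf1 rose over time in obese tumors by log2 0.57 ± 0.16 (SE, edgeR adjusted p = 0.00341) and in lean tumors by 0.49 ± 0.18 (SE, edgeR adjusted p = 0.0446). Il34, its other ligand, fell in obese tumors, at -0.93 ± 0.22 (SE, edgeR adjusted p = 0.000842), and had a lean value of -0.43 ± 0.24 (SE, edgeR adjusted p = 0.179). After the correction Csf1 still rose in both, and Il34 was at 0.103 (edgeR adjusted p = 0.54) in obese tumors. Cd200, the ligand of Cd200r1, averaged 0.29 ± 0.227 CPM in obese endpoint, 0.344 ± 0.205 CPM in lean endpoint, 0.102 ± 0.096 CPM in obese midpoint and 0.302 ± 0.219 CPM in lean midpoint tumors, near the detection limit. Cx3cl1, the ligand of Cx3cr1, averaged 7.29 ± 2.35, 8.65 ± 2.16, 9.28 ± 3.78 and 12.8 ± 4.11 CPM in the same groups and passed no test.

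Markers of other cell types also differed over time. T and NK cell markers, 12 genes with 10 tested, summed to 4.49 to 9.31 CPM in obese endpoint, 2.62 to 6.48 CPM in lean endpoint, 8.48 to 19.1 CPM in obese midpoint and 8.84 to 13.3 CPM in lean midpoint libraries, and 6 of 10 fell over time in obese tumors, against 36.1% of all genes, and 5 of 10 in lean tumors, against 9.5%. Neutrophil markers summed to 47.5 to 84.3 CPM in obese endpoint, 45.5 to 93 CPM in lean endpoint, 19.6 to 82.8 CPM in obese midpoint and 21.7 to 49.4 CPM in lean midpoint libraries. The 9 fibroblast genes summed to 1723 to 2874 CPM in obese endpoint, 1683 to 2531 CPM in lean endpoint, 1254 to 2770.02 CPM in obese midpoint and 2077 to 2509 CPM in lean midpoint libraries. Among them Dcn and Lum, which encode matrix proteoglycans, rose over time by log2 5.29 ± 0.56 and 5.40 ± 0.64 in obese and 3.96 ± 0.59 and 4.14 ± 0.68 in lean tumors, while the collagen genes Col1a1 and Col1a2 fell in lean tumors, at -2.66 ± 0.46 and -2.15 ± 0.43. Between diets at endpoint Col1a2 and Col1a1 had the smallest p of the listed genes, at 1.58 ± 0.41 (SE, edgeR adjusted p = 0.618) and 1.5 ± 0.43 (SE, edgeR adjusted p = 0.811). Other genes high in that order were Hbb-bs of erythroid cells, at 1.83 ± 0.62, Plin1 of adipocytes, at 5.47 ± 1.83, Cdh5 of endothelium, at -0.77 ± 0.27, and Postn of fibroblasts, at 1.25 ± 0.46, none past the threshold. The summed levels over the 18 libraries were 3.77 to 8.83 CPM for B cell, 17.9 to 40.03 CPM for dendritic cell, 0.636 to 2.50 CPM for mast cell, 5.26 to 17.6 CPM for endothelial, 0.022 to 2.45 CPM for adipocyte and 0.83 to 15.1 CPM for erythroid markers. The part of these cells in the members' values was not tested.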

How the data were processed

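RNA was measured by bulk sequencing in mCherry-positive E0771 cells sorted from 19 tumors. The authors deposited 1 table of whole-number counts per gene for 39017 genes, not normalized. TopHat, DESeq and mm10 appear in the submitters' processing notes, with neither versions nor roles. The counting tool, annotation and strand setting were not given in the sources used here, so overlapping genes and near copies (Lyz2 and Lyz1, Clec4a2, Ms4a7, Fcgr3, Pirb and Pira2 with their relatives) are uncertain. Symbols (37607 genes) and transcript GC content came from GENCODE M21, gene length from the deposited count table, and promoters from RefSeq.

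Lean endpoint replicate 4, with 11889188 counts, was left out: 0 of 8411 genes of chromosomes 6 to 19, X and M that were well counted in its group had any. Counts of the other 18 libraries were fitted with edgeR 4.0.16 in R 4.3.3 (filterByExpr, 16352 genes, TMM, 1 mean per group, quasi-likelihood test, Benjamini-Hochberg over all genes, threshold 0.05), a procedure tested on simulated counts. The simulated counts had the same spread for every gene, no GC trend and no library that stood apart. They do not show how the procedure performs on data with such features. SE is the fold change over the square root of F, and a prior count of 2 went into log2 CPM. The GC and length correction used natural splines with 5 degrees of freedom per library. Correlations had exact two-sided permutation tests. The pseudocount of the heatmap was 0.1 CPM.

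The members, lists and tests were chosen with earlier results of these data known. Values per library are given for Itgam, Adgre1, Csf1r, the 6 other members of highest mean CPM, the 5 of smallest p in each tested comparison and the 9 chosen at midpoint; from other lists, the 8 of smallest p per comparison and the ligands. None of 32 library pairs within groups was a repeat. Alternatives were other normalizations, filters and tools (DESeq2 1.42.0, limma 3.58.1), fits of 2 groups, a replicate block, all 19 libraries, the correction, and each library left out.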

Additional observations from a re-analysis of the deposited data

Results flagged for a closer look

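Within groups, a library was taken as far from the others by Dixon's test at 95%, and 31 of the 124 combinations of a member and a group were so marked. Chance marks about 1 in 20 for a single combination. The members move together across libraries, so the combinations are not independent and the 31 are not read against that rate. Obese endpoint replicate 4 accounted for 24 of them. Its CPM were 70.4 for Itgam, 40.9 for Adgre1, 37.6 for Cd53, 37.8 for Laptm5, 107 for Cd68, 10.3 for Aif1, 22.2 for Csf1r and 30.7 for Msr1. They were also 10.8 for Clec4a2, 24.6 for Fcgr1, 29.7 for Fcgr3, 69.7 for Fcer1g, 22 for Tyrobp, 5.8 for Cd200r1, 6.59 for Cd86 and 17.4 for Ms4a7. The remainder were 66.1 for C1qa, 83.9 for C1qb, 48 for C1qc, 137 for Ctss, 22.8 for Tlr13, 18.9 for Pld4, 21.6 for Cybb and 13.5 for Spi1. Each of these 24 values was the highest of its group.

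The other 7 were spread over 6 libraries. Fcer1g was at 30.2 CPM in lean endpoint replicate 5, next to 20.3 CPM in the nearest library of its group. C1qc was at 8.2 CPM in lean endpoint replicate 1, next to 18.8 CPM in the nearest library of its group. Csf1r was at 22.9 CPM in obese midpoint replicate 3, next to 13.1 CPM in the nearest library of its group. Fcgr1 was at 20.9 CPM in obese midpoint replicate 3, next to 10.9 CPM in the nearest library of its group. Ctss was at 61 CPM in obese midpoint replicate 1, next to 23.2 CPM in the nearest library of its group. Cx3cr1 was at 0.302 CPM in lean midpoint replicate 1, next to 0.216 CPM in the nearest library of its group. Tyrobp was at 13.2 CPM in lean midpoint replicate 4, next to 23.5 CPM in the nearest library of its group.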

How the results depend on the processing

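Among the named members' values, 34 changed sign under an alternative, 604 kept their direction and their side of the threshold, 37 lost the threshold and 9 gained it. Endpoint over midpoint in lean tumors, with 1 member higher and 6 lower, gave 2 and 10 with limma-voom, 2 and 13 with the 2 groups fitted alone, 0 and 0 with all 19 libraries, and 0 and 12 with the correction and without obese endpoint replicate 4. In that last fit 11.6% of all genes were called higher and 11.9% lower. With single libraries left out it gave 0 to 2 higher and 0 to 13 lower. In obese tumors, 11 higher and 1 lower became 7 higher with all 19 libraries, 5 higher with the correction, and 2 higher and 6 lower with the correction and without obese endpoint replicate 4. Its count of lower members was 7 with limma-voom and 0 with RLE normalization, no filter, a filter of 5 CPM in 4 libraries, DESeq2, the 2 groups alone and all 19 libraries, and it was 0 to 12 with single libraries left out. At midpoint the 13 lower members became 22 with limma-voom and 0 with the 2 groups alone or all 19 libraries, and 0 to 17 with single libraries left out. For the difference of the diet effects 11 members were called by DESeq2 and 6 by limma-voom, with 0 to 12 and a median of 0.31 to 1.29 when a library was left out, and a median of 0.45 with the correction and without obese endpoint replicate 4. The median between diets at endpoint was -0.51 with limma-voom, -0.605 with the correction and without obese endpoint replicate 4, and -0.56 to 0.34 with a library left out. Csf1r was related to 5 to 27 members at endpoint with a library left out. Where a count has no share of all genes beside it, here or with the replicate block, it shows only how the calls moved. Such counts are not read as results about the members. Fits with all 19 libraries take in lean endpoint replicate 4, whose counts stop on chromosome 5. Members past that point enter these fits with a 0 that is not a measurement, so the fits are no check on the calls. Beyond this, the cause of the shifts was not tested.

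Replicate numbers were not used to pair the libraries in the main fit. The deviations of 24 same-numbered pairs correlated by -0.40 to 0.55, with 6 over 0.1. Pairs with different numbers were not compared, so whether the numbers pair the libraries was not settled. With a replicate block 0 members rose and 2 fell over time in lean tumors, 0 fell in obese tumors, and Adgre1 was at -0.16 between diets at endpoint.

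Values that changed sign, on the log2 scale, were as follows. Over time in lean tumors Itgam was -0.18 with 19 libraries and -0.028 with the correction, -0.029 without obese endpoint replicate 4 as well, and -0.099 to 0.49 with a library left out. Over time in obese tumors Adgre1 was -0.075 with limma-voom, -0.083 with the correction, -0.94 without obese endpoint replicate 4 as well, and -0.17 to 0.97 with a library left out. Between diets at endpoint limma-voom gave -0.602 for Adgre1, -0.14 for Cd68, -0.41 for Clec4a2 and -0.24 for Ptprc. The correction without obese endpoint replicate 4 gave -0.59, -0.23, -0.63 and -0.18 for the same genes. Itgam was 0.032 with RLE, 0.023 without a filter, 0.035 with 5 CPM, 0.033 with DESeq2 and 0.35 with 19 libraries, and Csf1r 0.24 with 19 libraries. In the fits with 19 libraries Itgam and Csf1r have 0 counts in lean endpoint replicate 4 because its counts stop before their chromosomes. Sign changes in those fits are therefore not read. Leaving out single libraries gave -0.59 to 0.54 for Adgre1, -0.24 to 0.39 for Cd68, -0.46 to 0.69 for Clec4a2, -0.74 to 0.080 for Csf1r and -0.79 to 0.18 for Itgam. Fits with the correction but without obese endpoint replicate 4, and fits of chromosomes 1 to 4, were added after seeing the data.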

Other observations

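Lean endpoint replicate 4, which entered no comparison above, holds counts on chromosomes 1 to 4, where 12 of the members lie. With counts scaled to the total on these chromosomes, 11 of the 12 lay within the range of the other 4 lean endpoint libraries. Ptprc had 52 CPM in lean endpoint replicate 4, against 13.6 to 73.9 CPM in the other 4 libraries of its group. Mrc1 had 90.9 CPM in lean endpoint replicate 4, against 45.1 to 256 CPM in the other 4 libraries of its group. C1qb had 179.7 CPM in lean endpoint replicate 4, against 121 to 197 CPM in the other 4 libraries of its group. Fcgr3 lay below its group, at 50.8 CPM against 60.3 to 87.7 CPM. With the fit confined to chromosomes 1 to 4 and 19 libraries, the endpoint over midpoint log2 fold change in lean tumors was 1.87 for Mrc1, -1.52 for Laptm5, -1.47 for Fcgr1 and -1.48 for Fcer1g. The same fit with 18 libraries gave 1.91, -1.42, -1.495 and -1.45 for the same genes.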
